A study of Mus musculus with 16 samples.

Results

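Polyclonal DN4 thymocytes of NOD mice were compared with those of B6g7 mice, in 2 arrays of each strain, 4 of the 16 arrays in the series. NOD mice develop autoimmune diabetes, and B6g7 mice are C57BL/6 mice that carry the H2g7 MHC haplotype of NOD, so both groups share that haplotype. All 4 samples came from female mice aged 4 weeks that carried no T cell receptor (TCR) transgene (non-Tg). In every sample, cells bearing CD4 or CD8 were first removed with complement, and CD4-CD8-Lin-CD44-CD25- cells were then sorted by flow cytometry. The other 12 arrays, which held DN2-3 cells of both strains and DN2-3 and DN4 cells of mice with the BDC2.5 TCR transgene (BDC), helped to estimate the spread between replicates and gave 2 comparisons near the end. Total RNA was hybridized to Affymetrix arrays with 1 colour, and every value is a log2 intensity of the brightest probe set of a gene. Differences are NOD minus B6g7 on the log2 scale with their standard error, and levels of different genes cannot be compared. Separate animals are not named for the 2 samples of a group, so a p-value here covers the scatter of these samples and no more.

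DN4 is the last double-negative stage of thymocyte development. Cells that have rearranged a TCR beta gene pair its product with the pre-TCR alpha chain, and the signal of this pre-TCR lets them lose CD25, divide rapidly and turn on CD8 and CD4 on the way to the double-positive stage. The same signal induces immediate-early genes through the MAP kinase and calcium pathways and raises the demand for nutrients and lipids, and recombinase genes return at the double-positive stage, where TCR alpha genes are rearranged.

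Of 10689 genes tested, 2004 (18.7%) differed between the strains: 1496 (14.0%) were higher and 508 (4.75%) lower in NOD at an adjusted p under 0.05, by limma with Benjamini-Hochberg adjustment. At an unadjusted p under 0.05, 3084 of the 10689 genes were higher and 1030 lower. Counts of list members at that cut are read against these. Most differences were small. Both NOD arrays lay above both B6g7 arrays for 5445 genes (50.9%) and below them for 2009 (18.8%), so a gene whose groups do not overlap is common here. The median absolute change of the called genes was 0.49 log2, and 82 genes were higher and 51 lower by 2-fold or more. The arrays of the strains differed in how widely their signals were spread: the upper quartile was 9.352 and 10.017 times the lower on the NOD arrays, against 7.60 and 7.46 times on the B6g7 arrays, while the other 12 arrays ran from 6.82 to 10.3. The median of all tested genes was 0.13 log2 above 0 as deposited, and changes are read against that shift. With the genes in 4 equal groups by signal, it was -0.07 in the dimmest group and 0.19, 0.20 and 0.13 in the next ones up. After quantile normalization of the 16 arrays again, the median was 0.02, and 734 genes (6.87%) were higher and 619 (5.79%) lower. Both settings called 692 genes higher (6.47%) and 425 lower (3.98%), and the counts of gene lists other than cell type markers are given on both scales below. Centring each array on its median took the split the other way, to 2370 higher and 325 lower, or 87.94% higher, against 74.65% as deposited and 54.25% after quantile normalization. A fit without the NOD DN2-3 group called 3389 of all genes higher and 990 lower. The number of all genes called also changed with each array left out, as given at the end. List counts from such fits rise and fall with it and are no separate results about the lists.

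**Figure D1:**
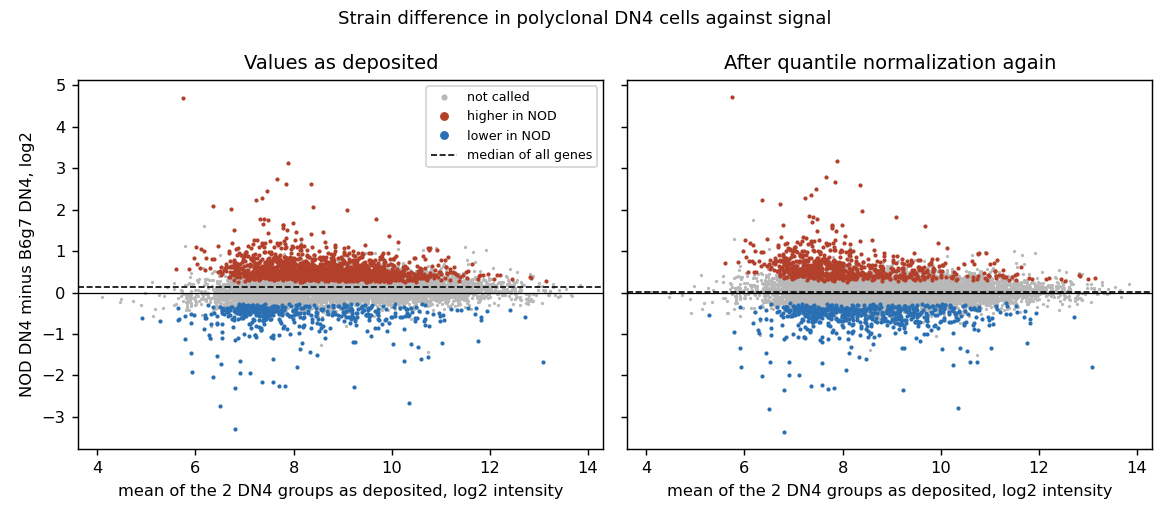
Difference between NOD and B6g7 DN4 cells (log2, vertical axis) against the mean signal of the 2 groups (log2 intensity, horizontal axis) for 10689 genes, with the values as deposited on the left and after quantile normalization again on the right. Coloured points are called genes; the dashed line marks the median of all genes, 0.13 on the left and 0.02 on the right.

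The sorted cells expressed the T cell gene Cd3e, and the sort genes Il2ra and Cd44 read lower than in DN2-3 cells. Their coreceptor RNA is given below, and whether cells past the double-negative stage were present was not tested. Il2ra, which encodes the CD25 that the gate excludes, read 10.18 and 9.96 in NOD DN4 and 10.56 and 10.20 in B6g7 DN4 cells, against 13.30 and 13.11 in NOD DN2-3 and 12.93 and 12.90 in B6g7 DN2-3 cells. Cd44 read 6.81 and 6.95 in NOD DN4 and 6.51 and 6.64 in B6g7 DN4 cells, and the DN2-3 cells read higher at 8.07 and 8.13 in NOD and 7.86 and 7.92 in B6g7. Both genes were used by the sort, so the lower DN4 levels only check it. Among 13 genes of DN4 identity, 3 were higher (23.1%, against 14.0% of all genes) and 0 lower in NOD (3 higher and 1 lower after quantile normalization). At an unadjusted p under 0.05 there were 4 and 1, against 3084 and 1030 of all 10689 genes. Without B6g7 replicate 1, 2 were higher, and without each of the other 3 arrays 1 was. The invariant chain gene Cd3e read 12.75 and 12.59 in NOD and 12.50 and 12.72 in B6g7 cells, a difference of 0.06 ± 0.10 that did not pass.

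Genes that mark other cells were at or near background in part. A signal of 5.98 log2, the highest that a Y-linked gene gave on a female array, was taken as the level below which a gene was not above background. How many of all genes stayed at that level was not counted. Of the B cell markers, 7 of 18 stayed at that level on all 4 arrays, among them Cd79a, Ms4a1 and Ebf1, and the markers summed to 2584 and 2563 in NOD against 3644 and 3198 in B6g7 (linear intensity). Of the myeloid markers, 10 of 33 were at background, including Adgre1, Itgam and Csf1r, and their sums were 4144 and 4132 in NOD against 4061 and 4038 in B6g7. NK markers summed to 2429 and 2567 in NOD and to 2971 and 3203 in B6g7, with 10 of 21 at background, Ncr1 and Klrb1c among them. For stromal markers the sums were 2782 and 2796 in NOD against 2931 and 3059 in B6g7 (3 of 22 at background), and for erythroid markers 832.0 and 838.7 in NOD against 963.3 and 970.5 in B6g7 (2 of 10). Mast cell markers summed to 1080 and 1031 in NOD and 1176 and 1170 in B6g7 (8 of 14 at background). Apart from the myeloid list, each of these sums was lower in both NOD arrays than in both B6g7 arrays. A sum is led by its brightest members, and some of these are not particular to the cell type named. Ly6d, on the B cell list, averaged 10.66 in NOD and 10.75 in B6g7 DN2-3 cells. Cpa3, on the mast cell list, averaged 11.34 and 11.63 there. The sums therefore do not measure B cells or mast cells. The part of such cells in the results below was not tested.

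By the test, 0 of 5 tested B cell markers were higher and 2 lower (40%), against 14.0% and 4.75% of all genes. At an unadjusted p under 0.05 these counts were 0 and 2. The lower genes were Cd72, which encodes a coreceptor of the B cell receptor, and Ly6d. In the same test, of 10 tested myeloid markers Cd68 and Cd74 were higher (20%) and Cx3cr1 was lower (10%). Of 8 tested NK markers Nkg7 and Ccl5 were lower (25%). Of 9 tested stromal markers Cldn4 was higher and Pdgfrb lower (11.1% each), and of 2 tested mast cell markers Cpa3 was lower (50%). These shares are read against the same 14.0% and 4.75%, and each rests on 10 or fewer tested genes. With 1 array left out, Cd72, Nkg7 and Pdgfrb kept their calls, and Cd68 lost it without NOD replicate 2 (adjusted p = 0.0623). Cx3cr1, Ccl5 and Cpa3 lost theirs without B6g7 replicate 1 or NOD replicate 2 (adjusted p up to 0.123, 0.0892 and 0.154), and Cd74 and Cldn4 whichever array was left out (up to 0.131 and 0.279). Cldn4 was also not called after quantile normalization (adjusted p = 0.0527). Of 2 erythroid markers and 4 sex-linked genes tested, 0 passed limma's test in either direction, and also 0 at an unadjusted p under 0.05.

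The gene of the pre-TCR alpha chain, Ptcra, had 8.99 and 9.03 in NOD cells, against 8.19 and 8.15 in B6g7 cells. It was higher in NOD by 0.84 ± 0.16 (limma adjusted p = 0.00376), with no overlap between the strains, and the difference was 0.65 after quantile normalization (adjusted p = 0.00517). Rag1, the recombinase subunit that cuts TCR gene segments, read 10.97 and 11.19 in NOD and 9.91 and 10.49 in B6g7 cells and was higher by 0.88 ± 0.24 (adjusted p = 0.0268). The lower of the NOD arrays lay above both B6g7 arrays, which themselves were far apart. Its partner Rag2 read 8.46 and 8.16 in NOD and 8.26 and 7.46 in B6g7 cells, so the groups overlapped and the difference of 0.45 ± 0.22 did not pass. Dntt, which adds untemplated bases at the junctions, differed by 0.04 ± 0.11, which did not pass (it was -0.39, past the threshold, with each array set to the same median and interquartile range), and Hmgb1, a cofactor of the recombinase, differed by -0.54 ± 0.12 (adjusted p = 0.00935). In the list of 12 genes of recombination and TCR alpha opening, Rag1 and Hmgb1 were the called members on both scales. With 1 array left out at a time, Ptcra stayed past the threshold (adjusted p from 0.0218 to 0.041). Rag1 missed it without B6g7 replicate 1, NOD replicate 1 or NOD replicate 2 (adjusted p up to 0.216), and Hmgb1 without B6g7 replicate 1 or NOD replicate 2 (up to 0.0788).

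The 3 coreceptor genes moved in opposite directions on both scales, with 1 higher and 2 lower in NOD. Cd8b1, the CD8 beta chain, had 9.36 and 9.52 in NOD cells, against 11.09 and 11.07 in B6g7 cells, and differed by -1.64 ± 0.22 (adjusted p = 0.000422). Cd8a, the CD8 alpha chain, had 8.85 and 8.97 in NOD and 9.57 and 9.39 in B6g7 cells, a difference of -0.57 ± 0.18 (adjusted p = 0.0408). Both CD8 genes were lower in both NOD arrays. Cd4 had 8.05 and 8.42 in NOD cells and 7.30 and 7.46 in B6g7 cells and was higher in both NOD arrays, by 0.86 ± 0.14 (adjusted p = 0.00185). In total RNA of sorted cells, fewer cells that express a gene and less RNA per cell cannot be told apart. The summed signal of the 3 coreceptor genes was 1388 and 1576 in NOD and 3092 and 3002 in B6g7 cells, against 296.5 to 1156 on the other 12 arrays, although the gate excluded cells with surface CD4 or CD8. With 1 array left out, Cd8b1 and Cd4 kept their calls (adjusted p up to 0.00724 and 0.0355), whereas Cd8a lost its call whichever of the 4 arrays was left out (adjusted p from 0.0645 to 0.212).

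Among 27 genes that change on the way to the double-positive stage, 6 were higher and 6 lower in NOD, 22.2% each against 14.0% and 4.75% of all genes (4 and 8 after quantile normalization), and their median of 0.04 was below that of all genes. The water channel gene Aqp11 had 9.92 and 9.86 in NOD and 11.18 and 11.22 in B6g7 cells, with a difference of -1.31 ± 0.13 (adjusted p = 4.71e-05). Its strain difference was already -1.29 ± 0.13 in DN2-3 cells, so it is not particular to DN4. Ly6d, a surface protein of immature lymphocytes, read 9.79 and 9.84 in NOD against 10.90 and 10.48 in B6g7 cells and differed by -0.87 ± 0.18 (adjusted p = 0.00705). Aqp11 stood clear of the strain spread on every array, and Ly6d lost its call without B6g7 replicate 1 or NOD replicate 2 (adjusted p up to 0.0848). The counts without 1 array were 3 higher and 3 lower (B6g7 replicate 1), 5 and 5 (B6g7 replicate 2), 2 and 5 (NOD replicate 1) and 3 and 3 (NOD replicate 2).

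**Figure D2:**
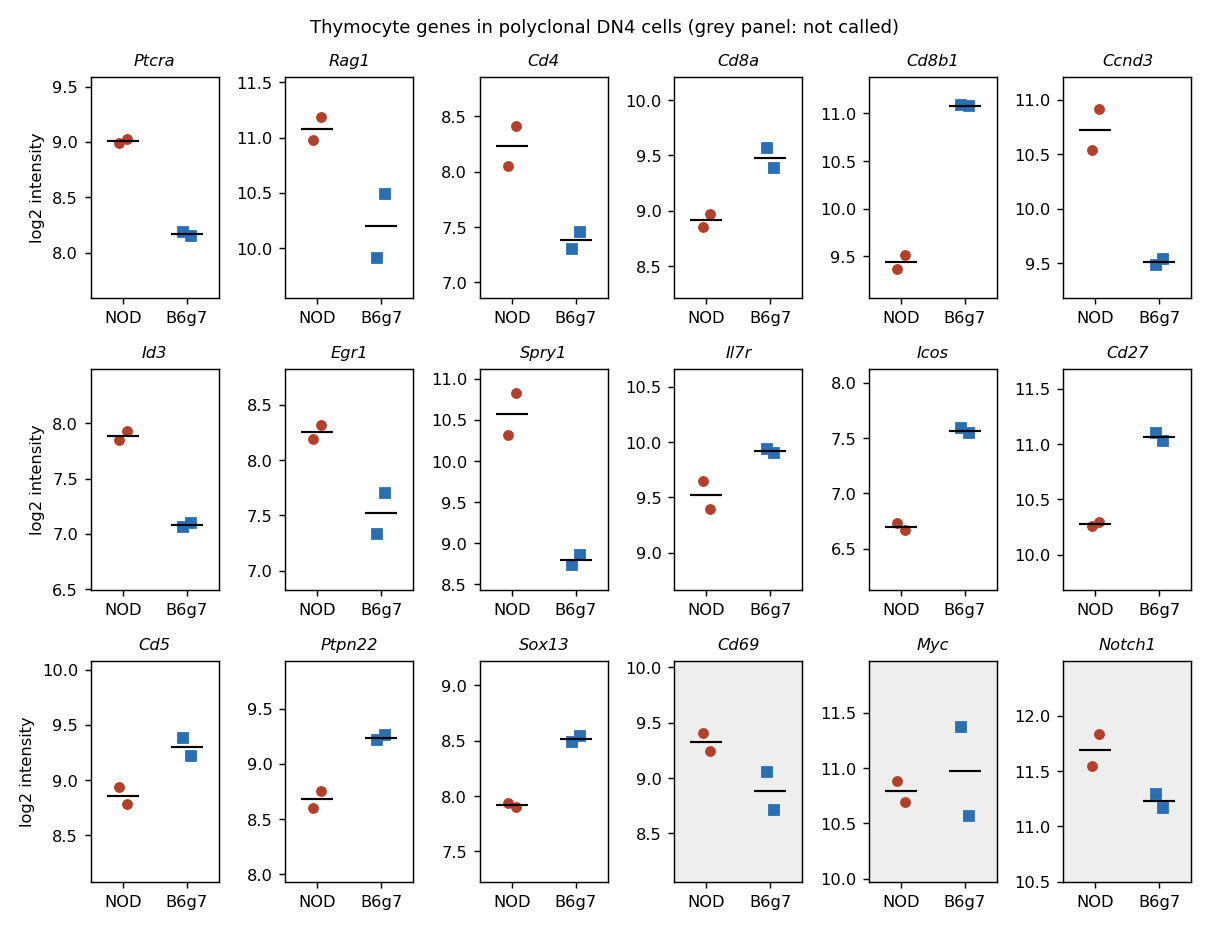
Log2 intensity of 18 thymocyte genes on the 2 NOD DN4 arrays (left, circles) and the 2 B6g7 DN4 arrays (right, squares), with horizontal lines at the group means; grey panels are genes that did not pass the test. Ptcra, Cd4 and Spry1 lie higher on both NOD arrays, and Cd8b1, Icos and Cd27 lie lower.

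Of 50 tested MAP kinase and calcium response genes, 10 were higher (20%, against 14.0% of all genes) and 1 lower (8 and 3 after quantile normalization), with a median of 0.20 against 0.13 for all genes. The largest change was that of Spry1, a feedback inhibitor of receptor signalling to MAP kinase, which had 10.32 and 10.82 in NOD cells, against 8.73 and 8.85 in B6g7 cells. It was higher by 1.78 ± 0.27 (adjusted p = 0.00102), and no B6g7 array came near the NOD arrays. Phlda1, a gene induced on T cell activation, had 8.31 and 8.49 in NOD and 7.29 and 7.17 in B6g7 cells (higher by 1.17 ± 0.13, adjusted p = 0.00012). Id3, an inhibitor of E proteins that the pre-TCR induces through Egr factors, had 7.85 and 7.93 in NOD and 7.06 and 7.10 in B6g7 cells (higher by 0.81 ± 0.13, adjusted p = 0.00109). These genes were higher on both NOD arrays and kept their calls whichever of the 4 arrays was left out (adjusted p up to 0.0201). The immediate-early transcription factor gene Egr1 had 8.19 and 8.32 in NOD against 7.33 and 7.71 in B6g7 cells and was higher by 0.74 ± 0.16 (adjusted p = 0.0092). Its call was lost without B6g7 replicate 1 or NOD replicate 2 (adjusted p up to 0.101). Cd69, an early activation marker, read 9.41 and 9.25 in NOD and 9.05 and 8.71 in B6g7 cells, and its difference of 0.45 ± 0.19 did not pass. The count of higher members was 4 without B6g7 replicate 1, 9 without B6g7 replicate 2, 8 without NOD replicate 1 and 3 without NOD replicate 2, and 18 in a fit without the NOD DN2-3 group.

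Of 40 tested genes of the pre-TCR and its proximal signals, 3 were higher (7.5%, against 14.0% of all genes), namely Ptcra, Cd3d and Cd3g. A further 5 were lower (12.5%, against 4.75%), with 2 higher and 8 lower after quantile normalization, at a median of 0.06 as deposited. Ubash3a, a phosphatase that restrains TCR signals, read 8.87 and 8.88 in NOD and 9.73 and 9.60 in B6g7 cells, a difference of -0.79 ± 0.12 (adjusted p = 0.00102). The adaptor gene Lcp2, which encodes SLP-76, read 11.59 and 11.38 in NOD and 12.28 and 12.03 in B6g7 cells, with a difference of -0.67 ± 0.12 (adjusted p = 0.00315). Ptpn22, another inhibitory phosphatase, had 8.60 and 8.76 in NOD and 9.21 and 9.26 in B6g7 cells and differed by -0.56 ± 0.13 (adjusted p = 0.0149). All 3 were lower on both NOD arrays. Cd5, an inhibitory receptor whose level follows TCR signal strength, read 8.94 and 8.78 in NOD and 9.38 and 9.22 in B6g7 cells (a difference of -0.44 ± 0.10, adjusted p = 0.0125). Ubash3a kept its call with any 1 array left out. Lcp2 lost it without NOD replicate 2 (adjusted p = 0.0522), Cd5 without B6g7 replicate 1 or NOD replicate 2 (up to 0.135), and Ptpn22 whichever of the 4 was left out (up to 0.0867). Cd3d and Cd3g, 2 chains of the CD3 complex, were higher by 0.41 ± 0.10 and 0.35 ± 0.09, although Cd3g turned to -0.26 with each array set to the same median and interquartile range and Cd3d was not called after quantile normalization (adjusted p = 0.139). With 1 array left out, Cd3g lost its call in each instance (adjusted p from 0.0604 to 0.1), and Cd3d kept it without B6g7 replicate 1 alone (otherwise up to 0.121). Without 1 array, 1 to 2 members were higher and 1 to 4 lower, with the fewest lower (1) without NOD replicate 2.

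Of 69 genes of G1 and S phase, 15 were higher (21.7%, against 14.0% of all genes) and 0 lower, at a median of 0.27 (31 and 4 at an unadjusted p under 0.05). After quantile normalization 8 were higher (11.6%, against 6.87%) and 3 lower, at a median of 0.15. Gins1, a subunit of the replicative helicase, had 9.12 and 9.21 in NOD cells and 8.42 and 8.35 in B6g7 cells and was higher by 0.78 ± 0.10 (adjusted p = 0.000357). Uhrf1, which maintains DNA methylation at replication forks, had 11.35 and 11.44 in NOD and 10.48 and 10.77 in B6g7 cells and was higher by 0.77 ± 0.17 (adjusted p = 0.0109). Both genes were higher on both NOD arrays. Ccnd3 encodes cyclin D3, which beta-selected thymocytes need in order to expand. It had 10.54 and 10.91 in NOD and 9.48 and 9.54 in B6g7 cells and was higher by 1.22 ± 0.33 (adjusted p = 0.0258), without overlap. Its standard error was large, and it lost its call whichever of the 4 arrays was left out (adjusted p from 0.0546 to 0.186). E2f1, a transcription factor of S phase entry, was higher by 0.74 ± 0.18 (adjusted p = 0.0145, up to 0.146 with 1 array left out). Uhrf1 missed the threshold without B6g7 replicate 1 or NOD replicate 2 (up to 0.105), and Gins1 kept its call. Without 1 array, the higher members of the list numbered 6 (B6g7 replicate 1), 11 (B6g7 replicate 2), 8 (NOD replicate 1) and 4 (NOD replicate 2), and 39 were higher in the fit without the NOD DN2-3 group.

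Of 75 genes of G2 and mitosis, 8 were higher (10.7%, below the 14.0% of all genes) and 1 lower (3 and 2 after quantile normalization), at a median of 0.15 as deposited and 0.02 after quantile normalization, close to 0.13 and 0.02 for all genes. Mybl2, a transcription factor of cycling cells, had 9.99 and 10.06 in NOD and 9.0 and 9.13 in B6g7 cells and was higher by 0.96 ± 0.18 (adjusted p = 0.00347). Pttg1, the securin that holds back chromatid separation, had 9.21 and 9.55 in NOD and 8.62 and 8.71 in B6g7 cells and was higher by 0.72 ± 0.12 (adjusted p = 0.00146). Both genes kept their calls with any 1 array left out. Cdc20, an activator of the anaphase-promoting complex, was higher by 0.56 ± 0.14 (adjusted p = 0.0165) and lost its call without B6g7 replicate 1 or NOD replicate 2 (up to 0.14). Ccnf was higher by 0.76 ± 0.24 as deposited and not called after quantile normalization (adjusted p = 0.0924) or without B6g7 replicate 1, B6g7 replicate 2 or NOD replicate 2 (up to 0.33). Without 1 array, 2 members of the list were higher (B6g7 replicate 1 or NOD replicate 2), 9 (B6g7 replicate 2) or 5 (NOD replicate 1). Myc, which drives growth at this stage, read 10.88 and 10.70 in NOD and 11.37 and 10.57 in B6g7 cells, so the strains overlapped.

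Of 25 tested genes of replication-dependent histones, 2 were higher and 7 lower (28%, against 4.75% of all genes) (2 and 8 after quantile normalization), at a median of -0.40. H4c4 had 12.26 and 12.24 in NOD and 13.91 and 13.94 in B6g7 cells, a difference of -1.67 ± 0.15 (adjusted p = 1.13e-05). H2bc4 differed by -1.19 ± 0.18 and H3c4 by -1.03 ± 0.18, while H3c15 had 8.33 and 8.35 in NOD and 6.67 and 6.54 in B6g7 cells and was higher by 1.74 ± 0.11 (adjusted p = 6.54e-07). These 4 kept their calls with any 1 array left out. Histone genes have near-identical copies, so a probe set can also read its neighbours in the family and the assignment to single genes is uncertain. Without B6g7 replicate 2, 15 members were lower, and without B6g7 replicate 1, NOD replicate 1 or NOD replicate 2 there were 3, 5 and 3.

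Sterol genes were the list with the highest median, 0.40 as deposited and 0.28 after quantile normalization. The lists were chosen with earlier results of these data known, so this rank is no independent test. Of 25 tested genes of cholesterol synthesis and uptake, 9 were higher in NOD (36%, against 14.0% of all genes) and 0 lower (18 and 0 at an unadjusted p under 0.05). After quantile normalization 7 were higher and 1 lower, and 6 were higher on both scales. Cells make cholesterol in a chain of enzyme steps whose genes are controlled together by the transcription factor SREBP2, which sterols hold back through the INSIG proteins. Promoters of 4 members are shown because 9 genes of the list were higher together, each as the 250 bases before the gene's start from RefSeq (build GRCm38.p6, the forward strand for all 4), with matches to either of 2 motifs in capitals. The motifs searched on both strands were TCACNCCAC, a form of the sterol regulatory element, and CCAAT, the site of NF-Y (ATTGG on the other strand).
Hmgcs1, chr13:119690101-119690350: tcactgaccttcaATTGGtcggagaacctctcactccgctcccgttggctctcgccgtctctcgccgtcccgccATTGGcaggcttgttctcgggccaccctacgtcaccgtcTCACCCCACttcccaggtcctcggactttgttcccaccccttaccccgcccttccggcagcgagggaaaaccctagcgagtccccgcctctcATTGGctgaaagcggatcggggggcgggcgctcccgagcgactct
Insig1, chr5:28071162-28071411: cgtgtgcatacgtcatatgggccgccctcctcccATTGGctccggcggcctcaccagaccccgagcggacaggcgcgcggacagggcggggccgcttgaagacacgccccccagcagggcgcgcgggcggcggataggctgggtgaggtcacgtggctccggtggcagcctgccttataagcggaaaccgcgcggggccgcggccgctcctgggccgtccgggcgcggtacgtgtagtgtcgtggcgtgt
Lss, chr10:76531355-76531604: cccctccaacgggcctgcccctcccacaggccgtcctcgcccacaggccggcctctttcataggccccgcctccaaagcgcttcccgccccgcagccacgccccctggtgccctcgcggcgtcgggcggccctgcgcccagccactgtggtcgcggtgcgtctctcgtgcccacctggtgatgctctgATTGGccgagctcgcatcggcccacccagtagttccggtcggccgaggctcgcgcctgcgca
Nsdhl, chrX:72918271-72918520: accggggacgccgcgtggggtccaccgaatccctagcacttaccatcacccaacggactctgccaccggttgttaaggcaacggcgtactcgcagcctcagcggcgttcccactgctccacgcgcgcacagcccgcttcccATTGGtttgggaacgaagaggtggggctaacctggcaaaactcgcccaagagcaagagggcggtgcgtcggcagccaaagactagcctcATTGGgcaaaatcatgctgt

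Of the 9 higher sterol genes, 7 had an entry in the RefSeq promoter table. The sterol element matched in 1 of those 7, Hmgcs1, at 137 bases before the start, in 0 of 13 sterol genes that were not called, and in 346 of all 32851 promoters of that length (1.05%). Hmgcs1, the synthase at the head of the chain, is shown for this match and was chosen after its values were seen. It read 10.31 and 10.41 in NOD and 9.91 and 9.53 in B6g7 cells and was higher by 0.64 ± 0.18 as deposited (adjusted p = 0.0258), but not called after quantile normalization (adjusted p = 0.0801). For both motifs a sterol gene counted if any of its listed starts matched, as for Insig2, whose 3 listed starts did not all match CCAAT. The shares of all promoters count each start singly, so the 2 kinds of count are not like for like. CCAAT matched in 7 of the 7 and in 11 of the 13 that were not called, against 33.8% of all promoters and 35.1% of those of tested genes. In the 4 promoters printed it lies 237, 176 and 45 bases before the start of Hmgcs1, 216 before Insig1, 62 before Lss, and 109 and 20 before Nsdhl, and no match overlapped one of the other motif. A match is a description of these letters, and a window without one says nothing about the factor.

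Lss, which makes lanosterol, the first sterol of the chain, had 8.89 and 9.05 in NOD cells, against 7.97 and 8.28 in B6g7 cells, and was higher by 0.85 ± 0.22 (adjusted p = 0.0226). Insig1, the sterol-dependent brake on SREBP, had 10.14 and 10.27 in NOD and 9.55 and 9.39 in B6g7 cells and was higher by 0.74 ± 0.16 (adjusted p = 0.0101). Nsdhl, an enzyme that removes methyl groups from the sterol core, had 9.91 and 10.23 in NOD and 9.35 and 9.38 in B6g7 cells and was higher by 0.70 ± 0.16 (adjusted p = 0.0102). For these 3 genes both NOD arrays lay above both B6g7 arrays. Hsd17b7, a reductase of the same late steps, had 9.01 and 9.18 in NOD and 8.56 and 8.28 in B6g7 cells and was higher by 0.68 ± 0.17 (adjusted p = 0.0182). After quantile normalization the 4 differences were 0.66, 0.59, 0.55 and 0.47, and all stayed called. Leaving out 1 array took Lss to an adjusted p of up to 0.159 (lost without B6g7 replicate 1, NOD replicate 1 or NOD replicate 2), Insig1 to 0.0924 and Hsd17b7 to 0.145 (both lost without B6g7 replicate 2 or NOD replicate 2), and Nsdhl to 0.121 (lost without B6g7 replicate 1 or NOD replicate 2). The higher members numbered 3 without B6g7 replicate 1, 6 without B6g7 replicate 2, 5 without NOD replicate 1 and 0 without NOD replicate 2, and 19 in the fit without the NOD DN2-3 group.

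**Figure D3:**
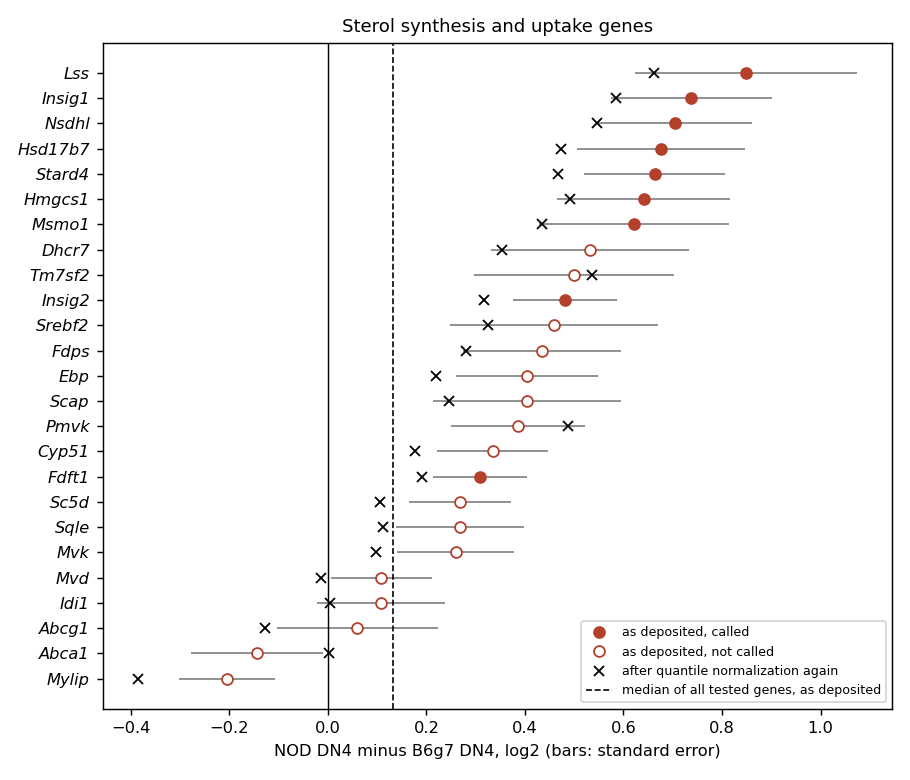
Difference between NOD and B6g7 DN4 cells (log2, horizontal axis) for the 25 tested sterol genes, with standard errors; filled circles are called as deposited, open circles are not, and crosses give the value after quantile normalization again. The dashed line is the median of all tested genes, 0.13, and all 9 called genes lie to its right.

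In the fatty acid list 3 of 27 were higher (11.1%, below the 14.0% of all genes) and 0 lower, at a median of 0.25 as deposited. At an unadjusted p under 0.05 there were 10 and 1, against 3084 and 1030 of all 10689 genes, and 1 was higher and 0 lower after quantile normalization. Scd1, the desaturase that makes oleic acid, had 9.03 and 9.30 in NOD cells and 6.58 and 6.50 in B6g7 cells. It was higher by 2.63 ± 0.26 (adjusted p = 3.9e-05), far outside the spread of either pair, and remained called with any 1 array left out (adjusted p up to 0.00119). Elovl1 and Lpin1 were higher by 0.42 ± 0.12 and 0.43 ± 0.13 as deposited and were not called after quantile normalization (adjusted p = 0.109 and 0.0942). With 1 array left out the list had 4 higher members without B6g7 replicate 2 and 1 without each of the others. Elovl1 and Lpin1 each also lost their call without B6g7 replicate 1, NOD replicate 1 or NOD replicate 2 (adjusted p up to 0.221 and 0.268).

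Genes of the amino acid response were higher in NOD in 7 of 27 (25.9%, against 14.0% of all genes) and lower in 1 (5 and 1 after quantile normalization), at a median of 0.31. Asns, which makes asparagine, had 7.62 and 7.44 in NOD and 6.63 and 6.82 in B6g7 cells and was higher by 0.81 ± 0.11 (adjusted p = 0.000473). Cth, which makes cysteine, had 7.17 and 7.19 in NOD and 6.35 and 6.59 in B6g7 cells and was higher by 0.71 ± 0.13 (adjusted p = 0.00432). Wars, a tRNA ligase for tryptophan, had 9.92 and 10.02 in NOD and 9.15 and 9.36 in B6g7 cells and was higher by 0.72 ± 0.14 (adjusted p = 0.00557). The 3 genes were higher on both NOD arrays. Asns kept its call with any 1 array left out, Cth lost it without B6g7 replicate 1 (adjusted p = 0.0572), and Wars without B6g7 replicate 1 or NOD replicate 2 (up to 0.0647). The count of higher members was 1, 6, 4 and 2 without B6g7 replicate 1, B6g7 replicate 2, NOD replicate 1 and NOD replicate 2.

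Of 22 transporter genes, 5 were higher (22.7%, against 14.0% of all genes) and 2 lower (9.09%, against 4.75%), with 3 and 1 after quantile normalization, at a median of 0.31. Slc15a2, a carrier of small peptides, read 5.23 and 5.08 in NOD cells, not above background, and 8.07 and 8.84 in B6g7 cells, a difference of -2.48 or lower (adjusted p = 0.00383). Its B6g7 arrays were far apart, but the call stood with any 1 array left out (adjusted p up to 0.0397). Slc19a2, a thiamine carrier, was higher by 0.81 ± 0.21 (adjusted p = 0.0184) and kept its call only without NOD replicate 1 (otherwise up to 0.152). The number of higher members was 0, 4, 1 and 0 without B6g7 replicate 1, B6g7 replicate 2, NOD replicate 1 and NOD replicate 2.

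Of 10 polyamine and creatine genes, 4 were higher (40%, against 14.0% of all genes) and 0 lower, and at an unadjusted p under 0.05 there were 4 and 1. After quantile normalization 2 were higher (20%, against 6.87%) and 0 lower. Gatm, which makes the precursor of creatine, had 9.04 and 9.05 in NOD and 6.21 and 6.38 in B6g7 cells and was higher by 2.75 ± 0.17 (adjusted p = 3.6e-07). Odc1, the enzyme that starts polyamine synthesis, had 10.55 and 10.38 in NOD and 9.54 and 9.71 in B6g7 cells and was higher by 0.84 ± 0.11 (adjusted p = 0.000332). A second probe set of Odc1 differed by 0.50 in the same direction. Both genes stayed called with any 1 array left out, and the list had 2 higher members without NOD replicate 2 and 3 without each of the others.

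Of 62 genes of ribosome biogenesis and Myc targets, 10 were higher (16.1%, near the 14.0% of all genes) and 0 lower (28 and 0 at an unadjusted p under 0.05), and 3 and 0 after quantile normalization, with medians of 0.23 and 0.09. Without 1 array the higher members numbered 2, 7, 4 and 1 (B6g7 replicates 1 and 2, NOD replicates 1 and 2). Of 55 cytosolic ribosomal protein genes none passed limma's test as deposited, 3 were higher and 3 lower at an unadjusted p under 0.05, and 0 were higher and 1 lower after quantile normalization. Of 31 genes of glycolysis and the pentose phosphate path, 6 were higher (19.4%, against 14.0%) and 0 lower (13 and 0 at an unadjusted p under 0.05), and 3 and 0 after quantile normalization, at a median of 0.28. Egln1, an oxygen sensor, was higher by 0.74 ± 0.17 (adjusted p = 0.0123), and Bpgm by 0.55 ± 0.10 (adjusted p = 0.00353). Egln1 lost its call without B6g7 replicate 1 or NOD replicate 2 (adjusted p up to 0.132) and Bpgm without NOD replicate 2 (adjusted p = 0.0501). For Ldhb the brightest probe set was higher by 0.69 ± 0.21, and another probe set differed by -0.34, so its direction is uncertain, and it was called without only 1 of the 4 arrays, B6g7 replicate 2 (otherwise up to 0.246). The glycolysis list had 1, 4, 2 and 0 higher members without B6g7 replicates 1 and 2 and NOD replicates 1 and 2.

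Of 74 genes of oxidative phosphorylation, 6 were higher (8.11%, against 14.0% of all genes) and 4 lower (5.41%, against 4.75%) (2 and 4 after quantile normalization), at a median of 0.10. Ndufs5, a subunit of complex I, had 6.87 and 7.19 in NOD and 8.29 and 7.96 in B6g7 cells and differed by -1.09 ± 0.19 (adjusted p = 0.00278). Atp5e, the epsilon subunit of ATP synthase, had 7.34 and 7.41 in NOD and 8.06 and 7.97 in B6g7 cells and differed by -0.64 ± 0.09 (adjusted p = 0.0004). Both were lower on both NOD arrays and kept their calls with any 1 array left out. Without 1 array the list had 0 to 3 higher members, with 0 without NOD replicate 2, and 2 to 5 lower ones.

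In the list of survival and death genes, 5 of 27 were higher (18.5%, against 14.0% of all genes) and 0 lower, and 3 and 1 after quantile normalization. At an unadjusted p under 0.05 there were 8 and 1, near the share of all genes (3084 and 1030 of 10689) for the higher ones. Mcl1, an anti-apoptotic protein that early thymocytes need, had 10.22 and 10.42 in NOD and 9.60 and 9.68 in B6g7 cells and was higher by 0.68 ± 0.17 (adjusted p = 0.016). Bcl2l1, which encodes BCL-XL, had 8.12 and 8.18 in NOD and 7.50 and 7.84 in B6g7 cells and was higher by 0.48 ± 0.13 as deposited (adjusted p = 0.0211) and not called after quantile normalization (adjusted p = 0.0744). Bcl2 read 9.50 and 9.48 in NOD and 9.52 and 9.64 in B6g7 cells, and the small difference did not pass. Xiap, an inhibitor of caspases, was higher by 0.56 ± 0.12 and Diablo, an antagonist of such inhibitors, by 0.51 ± 0.11. Mcl1, Xiap and Diablo lost their calls without B6g7 replicate 1 or NOD replicate 2 (adjusted p up to 0.141, 0.09 and 0.0875), and Bcl2l1 also without NOD replicate 1 (up to 0.181). The list had 1 higher member without B6g7 replicate 1 or NOD replicate 2, 6 without B6g7 replicate 2 and 4 without NOD replicate 1. Of 17 heat shock genes, the largest change was that of Hspa5, a chaperone of the endoplasmic reticulum, at 0.62 ± 0.16 (adjusted p = 0.0199). Its call was lost without B6g7 replicate 1, NOD replicate 1 or NOD replicate 2. In this list 5 genes were higher (29.4%, against 14.0% of all genes) and 0 lower (6 and 0 at an unadjusted p under 0.05), and 3 and 0 after quantile normalization. They numbered 0, 3, 2 and 2 without B6g7 replicates 1 and 2 and NOD replicates 1 and 2.

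Several genes on a list of mature T cell markers were lower in NOD, although some of them are also expressed in DN2-3 cells. Of 27 tested markers, 12 were lower (44.4%, against 4.75% of all genes) and 0 higher, also at an unadjusted p under 0.05, and 10 were lower and 0 higher after quantile normalization, with a median of -0.25 on both scales. Icos, a costimulatory receptor, had 6.73 and 6.67 in NOD cells, against 7.59 and 7.54 in B6g7 cells, and differed by -0.87 ± 0.14 (adjusted p = 0.00177). Ctla4, an inhibitory receptor, had 9.14 and 9.31 in NOD and 9.83 and 10.34 in B6g7 cells and differed by -0.86 ± 0.16 (adjusted p = 0.00362). Ms4a6b, a membrane protein of T cells, had 8.76 and 8.81 in NOD and 9.57 and 9.45 in B6g7 cells and differed by -0.73 ± 0.11 (adjusted p = 0.000983). All 3 were lower on both NOD arrays and kept their calls with any 1 array left out. Il7r, the receptor for the survival cytokine interleukin 7, had 9.65 and 9.39 in NOD and 9.94 and 9.90 in B6g7 cells and differed by -0.40 ± 0.11 (adjusted p = 0.0245). Its call was lost without B6g7 replicate 1, B6g7 replicate 2 or NOD replicate 2 (adjusted p up to 0.238). Ms4a4b read 5.70 and 5.38 in NOD cells, not above background, and 6.32 and 6.22 in B6g7 cells, and was not called after quantile normalization (adjusted p = 0.0807) or without B6g7 replicate 1 or NOD replicate 2 (up to 0.179). Ctla4, Ms4a6b and Il7r averaged 11.03, 10.27 and 11.11 in B6g7 DN2-3 cells, above their 10.09, 9.51 and 9.92 in B6g7 DN4 cells, while Icos averaged 6.81 against 7.57. In DN2-3 cells Ctla4 and Ms4a6b were lower in NOD too (-0.96 ± 0.16 and -1.25 ± 0.11, both past the test), and of the list 5 were lower and 1 higher there. The 29 matched markers summed to 9622 and 9283 in NOD and to 12545 and 12437 in B6g7 DN4 cells (linear intensity), both below the 15241 to 36506 of the other 12 arrays, and Cd40lg and Gimap3 were at background. The lower members numbered 4, 8, 9 and 4 without B6g7 replicates 1 and 2 and NOD replicates 1 and 2.

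Of 24 costimulatory and inhibitory receptors, 10 were lower (41.7%, against 4.75% of all genes) and 2 higher (11 and 2 after quantile normalization), with medians of -0.27 and -0.34. The largest decrease was that of Slamf1, a self-ligand receptor of lymphocytes, which had 6.67 and 6.47 in NOD cells and 8.98 and 8.65 in B6g7 cells and differed by -2.25 ± 0.15 (adjusted p = 1.01e-06). Cd93, a surface glycoprotein of early progenitors, had 6.09 and 6.09 in NOD and 7.80 and 7.68 in B6g7 cells and differed by -1.65 ± 0.10 (adjusted p = 3.42e-07). Cd27, a costimulatory receptor that double-negative cells carry after beta selection, had 10.26 and 10.29 in NOD and 11.10 and 11.03 in B6g7 cells and differed by -0.79 ± 0.11 (adjusted p = 0.000564). These 3 genes were lower on both NOD arrays. The higher members were Cd200 and Cd2, of which Cd2, named after its values were seen, was not called after quantile normalization (adjusted p = 0.267). Cd200, a ligand that restrains myeloid cells, had 8.20 and 8.50 in NOD against 6.03 and 6.21 in B6g7 cells and was higher by 2.23 ± 0.17 (adjusted p = 2.88e-06). Slamf1, Cd93, Cd27 and Cd200 stayed called with any 1 array left out, when 1 member of the list was higher, and the list had 7 to 10 lower members, fewest without B6g7 replicate 1. Cd28, the main costimulatory receptor, read 11.10 and 11.10 in NOD and 10.97 and 11.11 in B6g7 cells, and the strains overlapped.

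Of 19 genes of gamma-delta and innate-like T cells, 4 fell (21.1%, against 4.75% of all genes) and 0 passed the test as higher, at a median of -0.23. At an unadjusted p under 0.05 there were 7 lower and 0 higher, and after quantile normalization 6 and 0. Nkg7, a granule protein of cytotoxic cells, had 7.33 and 7.36 in NOD and 8.13 and 8.28 in B6g7 cells and differed by -0.86 ± 0.12 (adjusted p = 0.000687). Sox13, a transcription factor of gamma-delta cells, had 7.93 and 7.90 in NOD and 8.49 and 8.54 in B6g7 cells and differed by -0.60 ± 0.11 (adjusted p = 0.00403). Both genes were lower on both NOD arrays and kept their calls with any 1 array left out. The 26 matched genes summed to 5985 and 6053 in NOD and to 6748 and 7086 in B6g7, against 7170 to 43848 on the other 12 arrays, and 3 were at background.

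Of 38 tested candidate genes of autoimmune diabetes loci, 13 were lower (34.2%, against 4.75% of all genes) and 2 higher in NOD (17 and 1 after quantile normalization), at medians of -0.22 and -0.31. Several are members of the groups above, among them Slamf1, Cd93, Icos, Ctla4, Cd72, Ptpn22, Ubash3a and Il7r, and the list is no independent count of them. Trim12a, of the tripartite motif family, read 5.03 and 5.21 in NOD cells, not above background, and 7.91 and 7.83 in B6g7 cells, a difference of -1.89 or lower (adjusted p = 1.01e-07). B2m, the light chain of MHC class I, had 12.66 and 12.20 in NOD and 13.03 and 13.01 in B6g7 cells and differed by -0.59 ± 0.15 (adjusted p = 0.0216). Trim12a was lower on both arrays by far more than the spread of either pair. For B2m the NOD arrays were themselves far apart, and its call was lost without B6g7 replicate 1, B6g7 replicate 2 or NOD replicate 2 (adjusted p up to 0.227). Ifih1, a sensor of viral RNA, differed by -0.55 ± 0.13 (adjusted p = 0.0114) and lost its call without B6g7 replicate 1 or NOD replicate 2 (up to 0.108). The list had 7, 11, 11 and 8 lower members without B6g7 replicates 1 and 2 and NOD replicates 1 and 2.

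Of 41 type I interferon response genes, 3 were higher (7.32%, against 14.0% of all genes) and 4 lower (9.76%, against 4.75%), with 1 and 5 after quantile normalization, at a median of -0.01. Trim21, an antibody receptor of the cytosol, was higher by 0.74 ± 0.15 (adjusted p = 0.00659; 0.0626 without B6g7 replicate 1). Without B6g7 replicate 1 the list had 0 members called in either direction, without B6g7 replicate 2 it had 2 higher and 2 lower, without NOD replicate 1 it had 1 and 2, and without NOD replicate 2 it had 1 and 0. Of 7 guanylate-binding proteins and IRG GTPases, 4 were higher (57.1%, against 14.0% of all genes) and 0 lower (5 and 0 at an unadjusted p under 0.05). After quantile normalization 1 was higher (14.3%, against 6.87%) and 0 lower. That gene was Gbp7, which had 9.24 and 9.24 in NOD and 8.74 and 8.68 in B6g7 cells and was higher by 0.54 ± 0.10 (adjusted p = 0.00289); genes of this family have near-identical copies, so single assignments are uncertain. The higher members numbered 3 without B6g7 replicate 2 and 1 without each of the others. Of 21 genes of the MHC and antigen presentation, 2 were higher and 2 lower (9.52% each, against 14.0% and 4.75% of all genes), and 1 and 3 after quantile normalization. All of these calls were lost without B6g7 replicate 1, B6g7 replicate 2 or NOD replicate 2. Between H2-K1 and H2-M3, the MHC region for which B6g7 mice carry the NOD haplotype, 10 of 88 tested genes were called (11.4%, against 18.7% of all genes). On both scales 5 were called in either direction (5.68%), against 6.47% of all genes higher plus another 3.98% lower. Single chromosomes ran from 13.6% (X) to 25.5% (1) as deposited, and from 6.8% (X) to 15.3% (1) on both scales.

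Among 24 chemokine receptor, integrin and migration genes, 4 were higher and 4 lower (16.7% each, against 14.0% and 4.75% of all genes). After quantile normalization there were 4 and 7 (16.7% and 29.2%, against 6.87% and 5.79%). Itga6, a laminin-binding integrin chain, had 10.60 and 10.64 in NOD cells, against 9.18 and 9.33 in B6g7 cells, and was higher by 1.37 ± 0.11 (adjusted p = 5.48e-06). Itga4, an integrin chain that binds VCAM-1 and fibronectin, had 10.69 and 10.73 in NOD and 11.17 and 11.36 in B6g7 cells and differed by -0.55 ± 0.10 (adjusted p = 0.00269). The integrin chains thus moved in opposite directions, each without overlap and each with its call kept when any 1 array was left out. Nrp1, a semaphorin receptor, was higher by 0.65 ± 0.16 (adjusted p = 0.0182), and the chemokine receptor genes Ccr8 and Ccr7 differed by -0.64 ± 0.17 and -0.51 ± 0.17. All 3 lost their calls whichever array was left out (adjusted p up to 0.129, 0.126 and 0.221). Of 36 cytokine receptor and suppressor genes, 3 were higher (8.33%, against 14.0% of all genes) and 5 lower (13.9%, against 4.75%), with 1 and 6 after quantile normalization. Cish, a feedback inhibitor of STAT5 signals, had 6.34 and 6.40 in NOD and 6.92 and 6.96 in B6g7 cells and differed by -0.57 ± 0.12 (adjusted p = 0.00761), and Socs2 was among the higher members. The brightest probe set of Socs2 was at background in both strains, so that no difference is given for it, and it was called without only 1 of the 4 arrays, B6g7 replicate 2 (otherwise up to 0.104). A second probe set of Socs2 read 6.74 and 6.67 in NOD and 6.42 and 6.80 in B6g7 cells, so the strains overlapped. With 1 array left out, 0 or 1 cytokine receptor genes were higher and 1 to 4 lower, with 1 lower without B6g7 replicate 1 or NOD replicate 2. The migration genes had 2 or 3 higher and 2 lower ones.

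The share of genes called in either direction was 17.4% of 23 Notch pathway genes, 19.2% of 26 T lineage transcription factors and 15.8% of 19 early progenitor genes, near the 18.7% of all genes. Among the Notch pathway genes 2 were higher and 2 lower (1 and 3 after quantile normalization), with Ptcra and Fbxw7 higher and Hey1 and Maml3 lower. Fbxw7 lost its call without B6g7 replicate 1 or NOD replicate 2 (adjusted p up to 0.149). No lower member was called without B6g7 replicate 1, NOD replicate 1 or NOD replicate 2. Notch1 read 11.55 and 11.83 in NOD and 11.29 and 11.16 in B6g7 cells and Notch3 8.42 and 8.62 in NOD and 8.14 and 8.22 in B6g7 cells; neither difference passed. Hey1, a Notch target, had 7.17 and 7.16 in NOD and 7.65 and 7.83 in B6g7 cells and differed by -0.57 ± 0.16 (adjusted p = 0.0251, up to 0.136 with 1 array left out). Of the T lineage transcription factors, 2 were higher and 3 lower (1 and 3 after quantile normalization). Runx3, which silences Cd4 in the CD8 lineage, had 8.76 and 8.63 in NOD and 9.63 and 9.11 in B6g7 cells and differed by -0.68 ± 0.15 (adjusted p = 0.00967), and its call was lost without B6g7 replicate 1 or NOD replicate 2 (up to 0.0973), which left 0 lower members without NOD replicate 2 and 1 without B6g7 replicate 1. Bcl11b and Gata3, regulators of T cell commitment, differed by 0.25 ± 0.16 and -0.21 ± 0.12, and neither passed. Of the early progenitor genes, 2 were higher and 1 lower (1 and 1 after quantile normalization), and no member was called with 1 array left out.

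**Figure D4:**
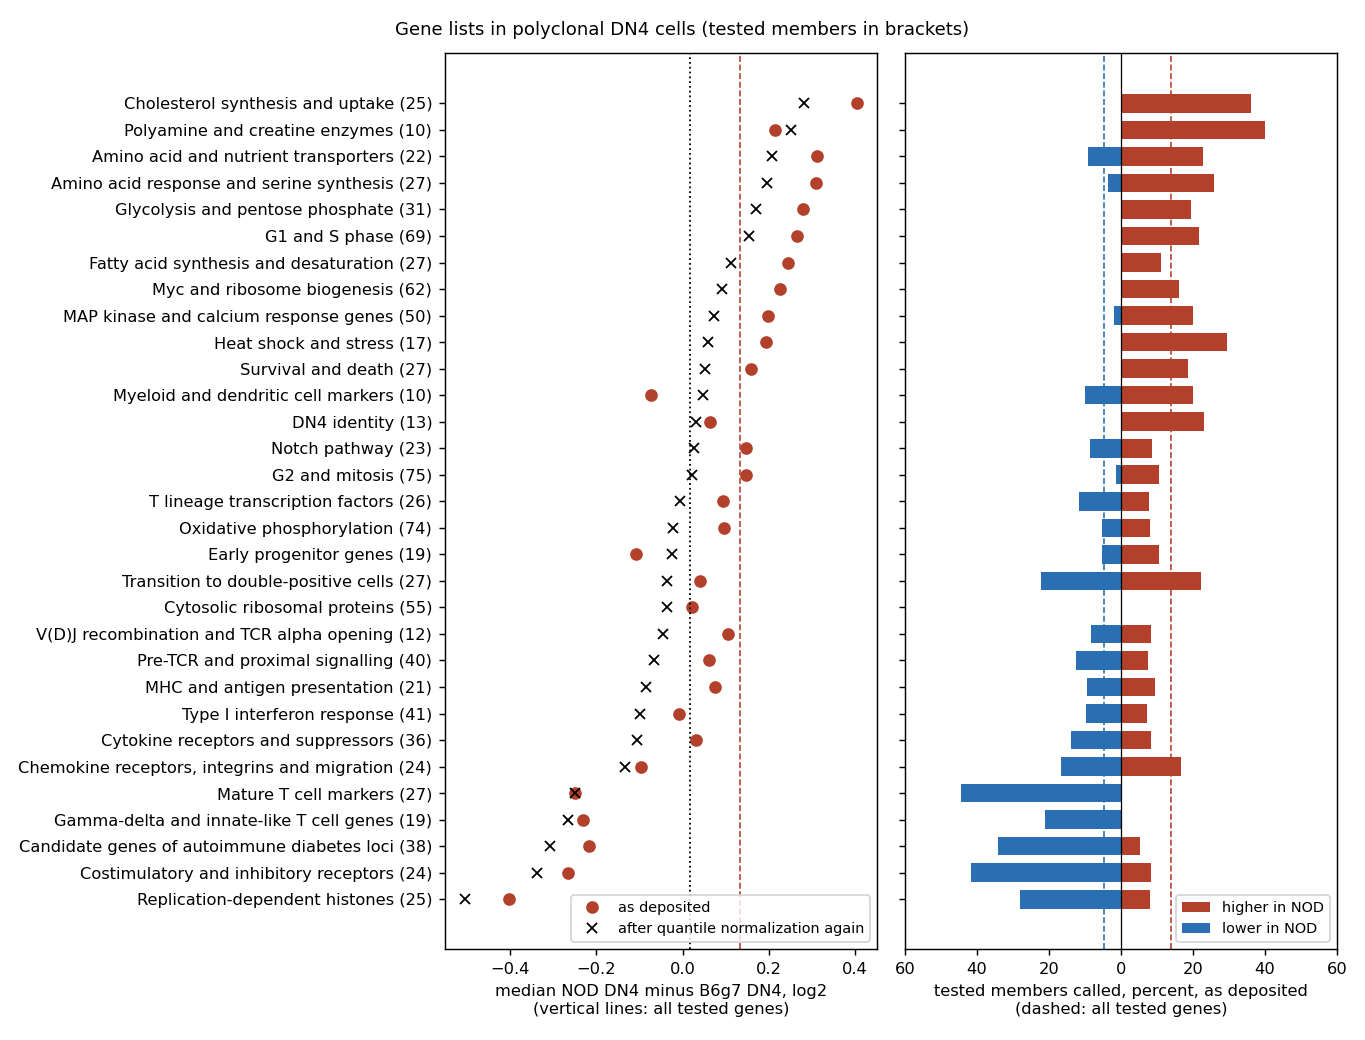
Median difference between NOD and B6g7 DN4 cells of the tested members of each gene list with at least 10 of them (left, log2; circles as deposited, crosses after quantile normalization again) and percent of tested members higher or lower in NOD (right). Lines mark all tested genes, at 0.13 and 0.02 on the left and at 14.0% and 4.75% on the right; sterol genes lie highest by median and histones lowest.

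The largest single differences were mostly in genes outside these groups. Several were also called in non-Tg DN2-3 cells, so they are not particular to DN4, and values are given further below. Zfp979, a zinc finger gene, read 8.24 and 7.93 in NOD cells and 3.27 and 3.52 in B6g7 cells, where it was not above background, and was higher by at least 2.11 (adjusted p = 1.62e-08). Afdn, a scaffold protein of cell junctions, had 9.64 and 9.69 in NOD and 7.05 and 7.02 in B6g7 cells and was higher by 2.63 ± 0.12 (adjusted p = 4.29e-08). Ryr2, a calcium channel of intracellular stores, had 8.57 and 8.79 in NOD and 6.24 and 6.21 in B6g7 cells and was higher by 2.46 ± 0.12 (adjusted p = 4.29e-08). Each lay far outside the spread between replicates. Probe sequences were not available, so for every gene in this report the part of strain sequence differences under its probes was not tested. Glrx, a reductase of protein thiols, had 9.35 and 9.49 in NOD and 7.03 and 7.68 in B6g7 cells and was higher by 2.07 ± 0.32, and Rdh10, an enzyme of retinoic acid synthesis, had 9.98 and 10.19 in NOD and 8.01 and 8.17 in B6g7 cells and was higher by 1.996 ± 0.17. H60b, which encodes a ligand of the receptor NKG2D, read 7.38 and 7.43 in NOD cells and 5.33 and 5.28 in B6g7 cells, not above background, and was higher by at least 1.42. Ccnb1ip1 and Prelid2 were higher by 2.28 ± 0.16 and 1.78 ± 0.10.

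Among the largest decreases, Dapk1, a death-associated kinase, had 6.90 and 6.52 in NOD cells, against 8.90 and 9.01 in B6g7 cells, and differed by -2.25 ± 0.12 (adjusted p = 1.35e-07). Clec12a, an inhibitory lectin receptor, had 6.56 and 6.45 in NOD and 8.91 and 8.42 in B6g7 cells and differed by -2.16 ± 0.18 (adjusted p = 7.1e-06). Abcb1b, an efflux pump, had 5.86 and 6.02 in NOD and 7.67 and 8.09 in B6g7 cells and differed by -1.94 ± 0.17 (adjusted p = 9.41e-06). No NOD array reached a B6g7 array for these genes. Where the NOD arrays were not above background the difference is a bound, -1.98 or lower for Akr1e1, -1.40 or lower for Sqor, an oxidase of hydrogen sulfide, and -0.90 or lower for Ceacam1, an adhesion molecule. Dgkeos, Fam183b and Myzap differed by -2.29 ± 0.15, -2.17 ± 0.17 and -1.93 ± 0.11. Leaving out predicted and clone-named genes, the 12 genes with the largest called increases and the 12 with the largest called decreases are all named above. Absence of overlap and a call on both scales were conditions of this choice; each of the 24 also kept direction and call when any 1 of the 4 arrays was left out.

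A further question was whether the strain difference depends on stage or on the TCR transgene. Values given below as between repertoires compare polyclonal with BDC DN4 cells and do not single out the repertoire. In non-Tg DN2-3 cells, 534 genes were higher (5.0%) and 596 lower (5.58%) in NOD than in B6g7, 10.6% in all. In BDC DN4 cells 2756 were higher (25.8%) and 1631 lower (15.3%), 41.0% in all, and in BDC DN2-3 cells 377 (3.53%) and 605 (5.66%), 9.19% in all. Of the 2004 genes called in polyclonal DN4 cells, 411 were called in the same direction in non-Tg DN2-3 cells and 13 in the opposite one. In BDC DN4 cells 1044 were called in the same direction and 84 in the opposite one. The comparisons share no array, but all use 1 estimate of the spread.

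Between polyclonal and BDC DN4 cells the strain effect differed in 2152 genes (20.1%), more positive in polyclonal cells in 1169 (10.9%) and more negative in 983 (9.20%), and in 1301 (12.2%) and 1195 (11.2%) after quantile normalization. Cd8b1 was among the genes that differed most. In BDC DN4 cells it read 9.23 and 9.10 in BDC/NOD and 8.07 and 7.97 in BDC/B6g7 cells, so NOD was higher there by 1.14 ± 0.22, where it was lower in polyclonal cells. The difference of the strain effects, polyclonal minus BDC, was -2.78 ± 0.31 (limma adjusted p = 8.64e-05). Rag1 read 9.97 and 10.08 in BDC/NOD and 7.04 and 6.49 in BDC/B6g7 cells, and its strain effects differed by -2.38 ± 0.34 (adjusted p = 0.000437). Nrp1 read 9.31 and 9.27 in BDC/NOD and 6.16 and 6.38 in BDC/B6g7 cells, with a difference of strain effects of -2.37 ± 0.23 (adjusted p = 3.08e-05). These genes were lower in both BDC/B6g7 arrays than in any other DN4 array. Il2rb, a receptor chain for interleukins 2 and 15, differed by 0.04 ± 0.14 between polyclonal strains, which did not pass. It read 7.002 and 6.70 in BDC/NOD and 9.33 and 9.76 in BDC/B6g7 cells, and the strain effects differed by 2.74 ± 0.19 (adjusted p = 7e-06). Spry1 was higher in NOD in both, by 1.96 ± 0.27 in BDC DN4 cells, and the difference of the strain effects of -0.18 ± 0.39 did not pass, nor did that of Slamf1 (-0.14 ± 0.22) or Dapk1 (0.12 ± 0.17). All polyclonal arrays are from females, whereas a male and a female array make up every BDC group, so transgene and sex cannot be fully told apart. The sorted DN4 cells also differed in other ways. Cpa3 averaged 6.82 in NOD and 7.64 in B6g7 cells, against 12.22 in BDC/NOD and 12.42 in BDC/B6g7 cells. The part of the repertoire, of cell state and of the mix of sorted cells was not tested.

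Between DN4 and DN2-3 polyclonal cells the strain effect differed in 967 genes (9.05%), more positive in DN4 in 784 (7.33%) and more negative in 183 (1.71%), against 243 (2.27%) and 142 (1.33%) after quantile normalization. Without 1 array these calls numbered between 21 (B6g7 DN2-3 replicate 1) and 5578 (NOD DN2-3 replicate 2). Scd1 was also higher in NOD DN2-3 cells, by 1.59 ± 0.26 (adjusted p = 0.00177), and the difference between stages, DN4 minus DN2-3, was 1.04 ± 0.37 (adjusted p = 0.073). For Spry1 the DN2-3 difference was 0.80 ± 0.27 (adjusted p = 0.0807), and the stage difference of 0.98 ± 0.39 did not pass (adjusted p = 0.0899). For Ptcra the DN2-3 difference was 0.08 ± 0.16 (adjusted p = 0.754), and the stage difference of 0.75 ± 0.22 lay just inside the threshold (adjusted p = 0.04996). It was not called after quantile normalization (adjusted p = 0.0948) or without any 1 of the 8 polyclonal arrays other than NOD DN2-3 replicate 2 (adjusted p up to 0.171 without NOD DN4 replicate 2). Cd8b1 differed between stages by -1.44 ± 0.31 (adjusted p = 0.0339) and Phlda1 by 0.91 ± 0.19 (adjusted p = 0.0318). Both of these calls were lost without either B6g7 DN2-3 array, either NOD DN4 array or B6g7 DN4 replicate 1 (adjusted p up to 0.134 for Cd8b1 and 0.144 for Phlda1). Slamf1 (-1.44 ± 0.15), Cd93 (-1.22 ± 0.10), Cd27 (-0.998 ± 0.11) and Ptpn22 (-1.03 ± 0.13) were lower in NOD DN2-3 cells too, each past the test, while the difference of 0.04 ± 0.14 for Icos did not pass. Of the genes with the largest DN4 differences, Afdn was higher in NOD DN2-3 cells by 3.06 ± 0.12. Dapk1, Dgkeos and Abcb1b differed there by -1.99 ± 0.12, -2.43 ± 0.15 and -2.21 ± 0.17. Each passed the test there, and their stage differences did not. Cd200 was higher there by 1.04 ± 0.17, past the test, with a stage difference of 1.19 ± 0.24 (limma adjusted p = 0.0283). For Glrx the DN2-3 difference of 0.73 ± 0.32 did not pass. Replicate 1 of NOD DN2-3 stood apart from its partner, with a median absolute difference of 0.24 log2, against 0.11 between the NOD DN4 and 0.14 between the B6g7 DN4 arrays. In a fit of the 8 non-Tg arrays alone, 5 genes passed the test between stages.

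**Figure D5:**
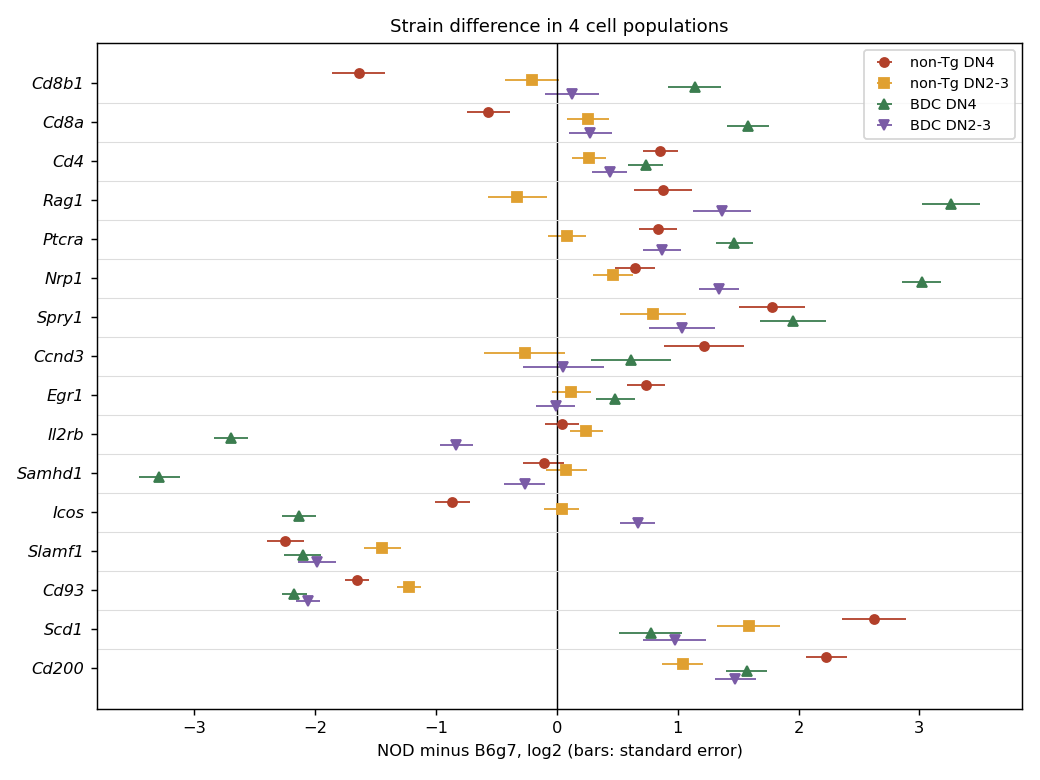
Strain difference, NOD minus B6g7 (log2, with standard errors), for 16 genes in polyclonal DN4 cells (circles), polyclonal DN2-3 cells (squares), BDC DN4 cells (upward triangles) and BDC DN2-3 cells (downward triangles). Cd8b1 lies below 0 in polyclonal DN4 cells and above 0 in BDC DN4 cells, whereas Slamf1 and Cd93 lie below 0 in both.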

How the data were processed

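The authors deposited linear intensities of 25108 probe sets on each of 16 arrays, normalized and summarised from the scanned arrays with Affymetrix Power Tools and RMA, per the submitters' processing notes, which give no version. The labels' protocols describe Trizol RNA, amplification and biotin labelling. The values were log2-transformed without a pseudocount, and their spread differs between the deposited arrays. Probe sets with 1 gene symbol in the platform annotation numbered 21157, with several 1341 and with none 2610, and 21074 were matched to RefSeq by gene ID. The probe set with the highest mean signal stood for its gene. Genes whose highest group mean reached 7.054 (132.9 linear) were tested, 10689 of 19531. limma 3.58.1 in R 4.3.3 was fitted to the means of 8 groups of 2 arrays (8 residual and 5.06 prior degrees of freedom), with two-sided tests and p-values adjusted by Benjamini and Hochberg's method over all 10689 genes, at a threshold of 0.05. The number of arrays limits the precision.

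On simulated data of 10689 genes for the NOD DN4 against B6g7 DN4 comparison, 68 of 100 genes changed 1.5-fold and 96 of 100 changed 2-fold were recovered, with 7 false calls. The simulation drew independent normal noise for each gene and no difference in signal spread between arrays. It therefore checks the code and does not give the error rate of the deposited arrays, whose spread differs. Members and gene lists (39 lists, 1209 of 1364 entries matched) were chosen with earlier results of these data known. Genes named are the 12 with the largest called increases and decreases outside predicted and clone-named genes, without overlap and called on both scales; up to 4 called members of each list; called markers of cell types; a set of key thymocyte genes; and up to 4 genes in each direction of the 2 interactions. Where a signal stood at or below 5.98 log2 in 1 group, the difference is a bound against that level. Alternatives were other scalings, filters, probe set rules, subsets of arrays, array weights, sex, a replicate block and leaving out single arrays. Promoter sequences and names came from RefSeq tables of GRCm38.p6.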

Additional observations from a re-analysis of the deposited data

Results flagged for a closer look

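The strain effect differed between polyclonal and BDC DN4 cells in 2152 genes by limma's interaction contrast, and between polyclonal DN4 and DN2-3 cells in 967. The genes below had the largest such differences, polyclonal DN4 minus the other, and no explanation was tested for any of them.

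Samhd1, an enzyme that degrades deoxynucleotides, averaged 5.84 in NOD DN4 and 5.95 in B6g7 DN4 cells, with 1 B6g7 array just above background, but 6.92 in BDC/NOD and 10.21 in BDC/B6g7 DN4 cells, a difference of strain effects of 3.18 (limma adjusted p = 1.01e-05). Il2rb averaged 6.44 in NOD and 6.40 in B6g7 DN4 cells, against 6.85 in BDC/NOD and 9.55 in BDC/B6g7 cells (2.74, adjusted p = 7e-06). Rxfp1, a relaxin receptor gene, averaged 6.14 in NOD and 5.66 in B6g7 DN4 cells, against 5.97 in BDC/NOD and 8.28 in BDC/B6g7 cells (2.79, adjusted p = 7.63e-05). All 3 were high in BDC/B6g7 cells. Snord37, a small nucleolar RNA, gave 2.62 (adjusted p = 0.0316) and was called without only 1 of the 4 polyclonal DN4 arrays in turn.

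Of the genes with the strain effect more negative in polyclonal cells, Cd8b1 averaged 9.44 in NOD and 11.08 in B6g7 DN4 cells, against 9.16 in BDC/NOD and 8.02 in BDC/B6g7 cells (-2.78, adjusted p = 8.64e-05). Rag1 averaged 11.08 in NOD and 10.20 in B6g7 DN4 cells, against 10.03 in BDC/NOD and 6.76 in BDC/B6g7 cells (-2.38, adjusted p = 0.000437). Nrp1 averaged 10.16 in NOD and 9.51 in B6g7 DN4 cells, against 9.29 in BDC/NOD and 6.27 in BDC/B6g7 cells (-2.37, adjusted p = 3.08e-05). Rgs6, a regulator of G protein signals, was above background only in BDC/NOD cells, at 7.84, with 5.39 in BDC/B6g7, 5.22 in NOD and 5.28 in B6g7 DN4 cells. Its fitted difference of -2.51 (adjusted p = 3.13e-06) thus rests on levels below background, and it was -1.86 with each array below 5.98 raised to that level. Apart from Snord37, these calls stood when any 1 of the 4 polyclonal DN4 arrays was left out.

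Between stages, Khdc1a averaged 4.05 in NOD and 4.15 in B6g7 DN4 cells and 4.19 in NOD and 7.82 in B6g7 DN2-3 cells, so that only B6g7 DN2-3 cells were above background. The fitted difference of strain effects of 3.52 (adjusted p = 0.00147) became 1.84 with each array below 5.98 raised to that level. Tpd52 averaged 6.62 in NOD and 6.95 in B6g7 DN4 cells, against 6.83 in NOD and 9.17 in B6g7 DN2-3 cells (2.01, adjusted p = 0.00116). Scin, an actin-severing protein, averaged 5.68 in NOD and 6.0 in B6g7 DN4 cells, against 8.18 in NOD and 10.34 in B6g7 DN2-3 cells (1.83, adjusted p = 0.00384). These 3 were low in DN4 cells of both strains, and their calls stood when any 1 of the 4 DN4 arrays was left out. Snord37 gave 3.44 (adjusted p = 0.0362), AY036118 -2.58 (adjusted p = 0.0488), B4galnt2 -1.92 (adjusted p = 0.0136), Ly96 -1.63 (adjusted p = 0.0399) and Tcte2 -1.61 (adjusted p = 0.029). Raising arrays below background to that level, a setting added after seeing the data, took Snord37 to 2.36 here and 2.00 between repertoires, Rxfp1 to 2.46, Samhd1 to 3.22, Scin to 2.05, B4galnt2 to -1.84 and Tcte2 to -1.40, and left Tpd52, Il2rb, Cd8b1, Rag1, Nrp1, AY036118 and Ly96 as they were. With 1 DN4 array left out in turn, B4galnt2 was called 2 of 4 times and Snord37, AY036118, Ly96 and Tcte2 1 of 4 times.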

How the results depend on the processing

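The 2004 genes called between NOD and B6g7 DN4 cells became 1353 after quantile normalization of the 16 arrays again. They became 417 in a fit of the 8 non-Tg arrays, the same 417 as without the 4 male arrays, since each BDC group then keeps 1 array, 3878 in a fit of the 8 DN4 arrays, 4379 without the NOD DN2-3 group, 3012 with array weights and 133 with a 2-fold minimum. Leaving out 1 array gave 435 (without NOD DN4 replicate 2) to 4379 genes (without either NOD DN2-3 replicate), with 571 without B6g7 DN4 replicate 1, 914 without NOD DN4 replicate 1 and 1571 without B6g7 DN4 replicate 2. With quantile normalization, an alternative chosen after seeing the data, these were 477 (NOD replicate 2), 619 (B6g7 replicate 1), 713 (NOD replicate 1) and 1343 (B6g7 replicate 2), and 3150 without the NOD DN2-3 group.

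Differences of the strain effect between stages, 967 as reported, numbered 485 without a filter, 385 after quantile normalization, 2640 after centring, 5 in the non-Tg arrays alone and, equally, without male arrays, 16 with array weights, 192 with sex as a term and 172 with a 2-fold minimum, and 21 to 5578 without 1 array. Between repertoires, 2152 became 3305 in the DN4 arrays alone, 3734 without the NOD DN2-3 group, 321 without male arrays, 3436 with array weights and 457 with a 2-fold minimum, and 1305 to 2000 without 1 array. The replicate numbers do not pair the samples in the labels (the deviations of same-numbered arrays correlated at 0.121); a replicate block gave 2049 genes for the strains, 1324 between stages and 2172 between repertoires.

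Of the 138 named genes called between the strains, 56 kept their call whichever DN4 array was left out and 24 lost it with each. With each array set to the same median and interquartile range, Cd3g turned to -0.26 and Dntt to -0.39. For every other named gene no alternative turned a called direction. In each instance the cause was not tested. The signal range was narrower on the B6g7 DN4 than on the NOD DN4 arrays, and its part in small differences was not tested.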
